A study of Mus musculus with 6 samples.

Results

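The 6 guide strands of the miR-17/miR-92a cluster were followed in mouse CD8+ T cells. They are the assays listed as mmu-miR-17, mmu-miR-18a, mmu-miR-19a, mmu-miR-19b, mmu-miR-20a and mmu-miR-92a, written below without the species prefix, chosen by name and without the passenger strands, and they are 6 of the 345 assays with a deposited normalized value. The cells were CD8+ pMel-1 transgenic T cells, whose single receptor recognises the melanoma antigen gp100, and they had been primed in culture for 3 days. In the DC-primed group the priming cells were bone marrow-derived dendritic cells matured with lipopolysaccharide (LPS), and in the B cell-primed group they were splenic B cells loaded with hgp100 peptide. Whether the dendritic cells were loaded with it too is not clear from the labels. Each group had 3 samples, and each of 3 rounds gave 1 sample per group. All samples shared the transgenic receptor and the medium, there was no unprimed group, and no step that removed the priming cells is given in the sources used here. In such bulk RNA, fewer cells of a type and less RNA per cell cannot be told apart.

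The cluster is a polycistron: 1 primary transcript is cut into 6 hairpins, each hairpin gives a guide strand that enters Argonaute and a passenger strand that is mostly degraded, and the maturation of each hairpin can be regulated on its own. Transcription is activated by MYC and E2F factors, which connects the cluster to cell cycle entry. In lymphocytes its miRNAs restrain the pro-apoptotic protein BIM, and in CD8+ T cells they rise after activation and favour clonal expansion and effector differentiation.

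In the RefSeq sequences of build GRCm38.p6 the 6 hairpins lie on the plus strand of chromosome 14 at chr14:115043671-115044506, in the order Mir17, Mir18, Mir19a, Mir20a, Mir19b-1 and Mir92-1, within 836 bases. The mature guide strands are printed to show which members share a seed, the bases 2 to 8 that pair with targets, here in capitals, and which are close enough in sequence for a primer to read more than 1 of them:
miR-17: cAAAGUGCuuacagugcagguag
miR-20a: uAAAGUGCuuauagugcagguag
miR-18a: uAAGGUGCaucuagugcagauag
miR-19a: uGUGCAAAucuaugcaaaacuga
miR-19b: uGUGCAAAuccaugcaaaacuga
miR-92a: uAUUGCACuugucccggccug

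miR-17 and miR-20a share a seed and differ at 2 of 23 bases. miR-19a and miR-19b share another seed and differ at 1 base of 23. miR-18a and miR-92a each have a seed of their own within the cluster. The mature miR-19b and miR-92a sequences are also encoded on chromosome X, by Mir19b-2 (chrX:52741991-52742013) and Mir92-2 (chrX:52741854-52741874), so those assays cannot tell the loci apart. The hairpin of miR-18a shows how a guide and its passenger strand, both in capitals with the guide first, sit in 1 precursor, since both strands were measured:
Mir18 hairpin: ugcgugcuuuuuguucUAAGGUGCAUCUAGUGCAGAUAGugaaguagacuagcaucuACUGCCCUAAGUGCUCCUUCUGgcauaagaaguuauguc

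Each miRNA was quantified by SYBR Green RT-PCR after poly(A) tailing, with a specific forward primer for each miRNA. Levels are given as minus dCt, the authors' threshold cycle (Ct) relative to 1 number per sample with the sign turned, so that 1 unit is nominally a 2-fold difference and higher means more miRNA. The samples differed in overall Ct, with medians over the tested assays of 26.4, 28.8 and 31.2 cycles in DC-primed samples 1, 2 and 3, against 26.9, 27.7 and 27.9 cycles in B cell-primed samples 1, 2 and 3. DC-primed sample 3 stood apart, with 280 of 350 miRNA assays below Ct 35 where the other 5 samples had 327 to 341, so results are also given without it. The blood cell miRNAs miR-155, miR-142-5p and miR-181a had a Ct below 35 in all 6 samples, and miR-142-3p had no Ct in DC-primed sample 3, where the authors' dCt was filled in. Dendritic cells and B cells express these miRNAs too, so they do not identify T cells.

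The members with miR-17-type and miR-19-type seeds, and miR-18a, were lower on average in DC-primed than in B cell-primed cells, and miR-92a was not. Of the 6 members, 5 were lower in DC-primed cells and 1, miR-92a, was higher, beside 46.7% of the 274 tested assays that were lower. The median member difference was -2.30 on the log2 scale, beside 0.07 over all tested assays. limma called 0 of the 6 members at an adjusted p under 0.05, as it called 0% of all tested assays. At an unadjusted p under 0.05 were 24 of the 274 tested assays, 7.30% of all on the lower side, and miR-17, miR-18a and miR-20a among these. No member passed the test, so the differences below are descriptions of these 6 samples. Without DC-primed sample 3 all 6 members were lower, at -1.73 for miR-17, -2.95 for miR-18a, -1.08 for miR-19a, -1.92 for miR-20a, -1.75 for miR-19b and -0.45 for miR-92a, and again 0 passed the limma test.

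miR-17 and miR-20a, the seed pair that restrains BIM and cell cycle inhibitors, separated the groups in these samples. miR-17 had levels of 3.04, 0.95 and 0.80 in DC-primed samples 1, 2 and 3, against 3.22, 4.53 and 3.42 in their B cell-primed counterparts. miR-20a had levels of 3.65, 1.10 and 0.73 in the DC-primed samples, against 3.87, 5.02 and 3.98 in their B cell-primed counterparts. For both miRNAs every DC-primed value lay below every B cell-primed value, as for 8.03% of tested assays, but the DC-primed sample of round 1 was close to the B cell-primed range. miR-17 averaged 1.60 ± 1.25 after DC priming and 3.73 ± 0.71 after B cell priming (SD, n = 3 each), a difference of -2.13 ± 0.82 (SE, limma adjusted p = 0.463). miR-20a averaged 1.83 ± 1.59 after DC priming and 4.29 ± 0.64 after B cell priming, a difference of -2.47 ± 0.90 (adjusted p = 0.436). The 95% confidence intervals of these differences were -4.01 to -0.25 and -4.52 to -0.41. They are not adjusted for the number of assays.

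miR-18a, whose maturation from its hairpin is known to be helped by the RNA-binding protein hnRNP A1, had the largest difference of the members and the second most negative of the 274 tested assays. Its levels were 1.06, -3.11 and -3.03 in DC-primed samples 1, 2 and 3, against 2.02, 3.16 and 0.58 in their B cell-primed counterparts. The groups overlapped through DC-primed sample 1 and B cell-primed sample 3, while DC-primed samples 2 and 3 lay far below all others. The means were -1.69 ± 2.39 after DC priming and 1.92 ± 1.29 after B cell priming, a difference of -3.62 ± 1.22 (SE, adjusted p = 0.436), with a 95% interval of -6.41 to -0.83. miR-18a came latest of the members in DC-primed samples 2 and 3, at Ct 31.57 and 33.49.

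The miR-19 pair, the principal oncogenic seed of the cluster in mouse B cell lymphoma, split by round. miR-19a had levels of 0.90, 0.44 and -0.87 in DC-primed samples 1, 2 and 3, against -0.28, 3.74 and 1.77 in their B cell-primed counterparts. miR-19b had levels of 3.93, 0.79 and -1.16 in the DC-primed samples, against 1.80, 6.11 and 4.41 in their B cell-primed counterparts. The groups overlapped for both, because in round 1 the DC-primed sample was the higher one and in rounds 2 and 3 it was the lower one. The difference of miR-19a was -1.59 ± 1.06 (SE, adjusted p = 0.792, 95% interval -3.99 to 0.81). That of miR-19b was -2.92 ± 1.45 (adjusted p = 0.635, 95% interval -6.23 to 0.39). B cell-primed samples themselves spread widely for these assays, with an SD of 2.01 for miR-19a and 2.17 for miR-19b, against 0.64 for miR-20a.

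miR-92a, the last hairpin of the transcript and the member that carries a different seed family shared with miR-25, was not lower. Its levels were 1.90, 2.68 and 6.04 in DC-primed samples 1, 2 and 3, against 0.87, 1.54 and 5.80 in their B cell-primed counterparts. The DC-primed value was the higher one in each round, by 1.03, 1.14 and 0.24, as for 12.8% of tested assays, and both round 3 samples stood well above the other 4. The means were 3.54 ± 2.20 after DC priming and 2.74 ± 2.67 after B cell priming, a difference of 0.80 ± 1.49 (SE, adjusted p = 0.986, 95% interval -2.59 to 4.19). The sign changed when some single samples were left out: -0.45 without DC-primed sample 3, and -0.13 without the B cell-primed sample of round 1. Each of these fits leaves a sample without its round partner. Leaving out both samples of round 1, 2 or 3 kept the sign, at 0.69, 0.63 and 1.08. With the round as a block the difference was 0.80 ± 0.78 (SE, limma adjusted p = 0.885). The sign also depended on the scale, since raw Ct, which moved most assays down, gave -0.53.

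**Figure D1:**
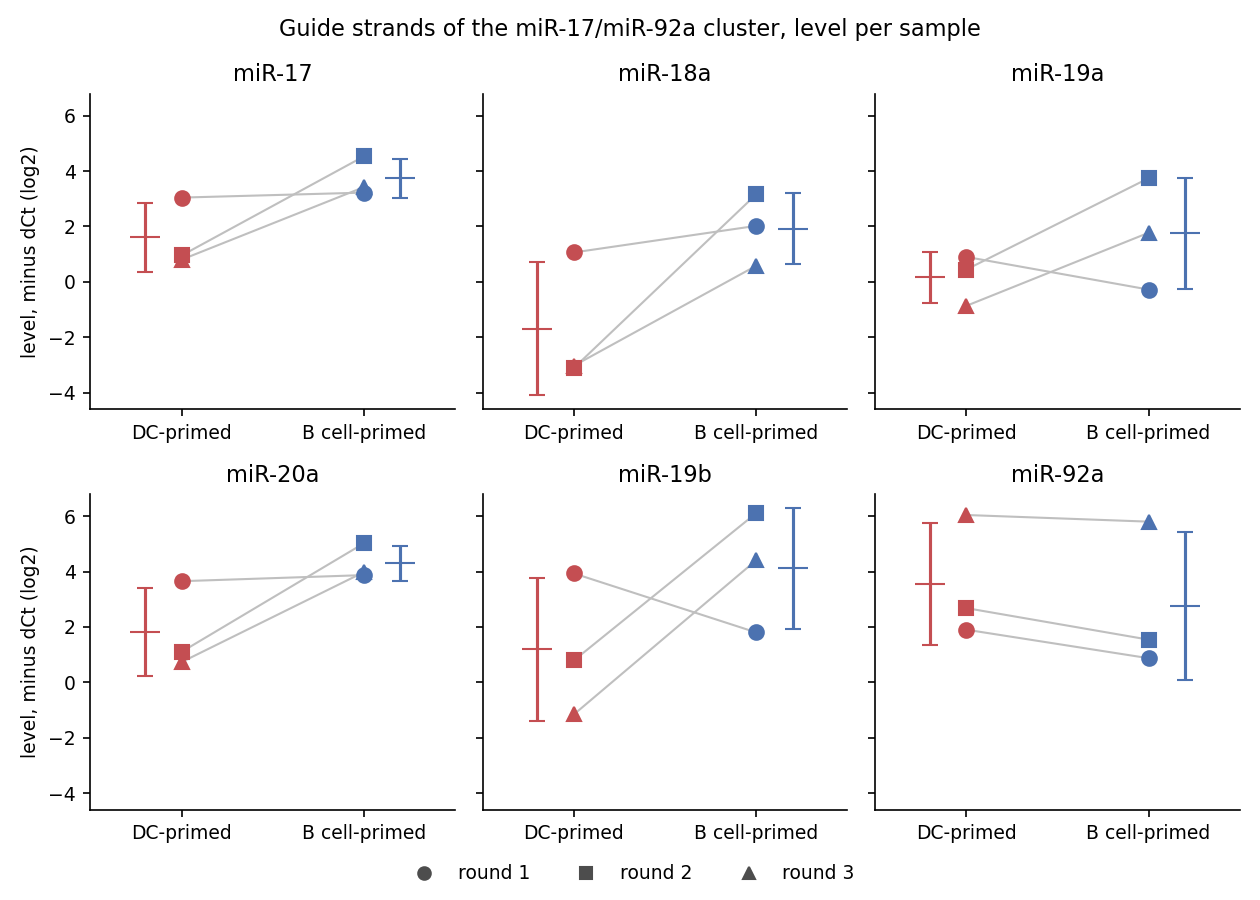
Level (minus dCt, log2) of each member in each sample, DC-primed on the left and B cell-primed on the right of each panel, with grey lines joining samples of 1 round and bars for mean and SD (n = 3). The groups do not overlap for miR-17 and miR-20a, cross in round 1 for miR-19a and miR-19b, and for miR-92a every line runs slightly down from DC-primed to B cell-primed.

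Read by round, 5 of the 6 members were lower in the DC-primed sample in rounds 2 and 3, and 3 of the 6 in round 1. In round 1 the differences were -0.18 for miR-17, -0.96 for miR-18a and -0.22 for miR-20a, and 1.18 for miR-19a, 2.13 for miR-19b and 1.03 for miR-92a. The round 1 median was 0.42 over all 6 members and -0.18 without miR-92a, beside -0.27 for all tested assays. In round 2 the 5 lower members differed by -3.58 for miR-17, -6.27 for miR-18a, -3.30 for miR-19a, -3.92 for miR-20a and -5.32 for miR-19b. In round 3 they differed by -2.62, -3.61, -2.64, -3.25 and -5.57 in the same order. The medians over all 6 members were -3.75 and -2.95 in rounds 2 and 3, beside 0.45 and -0.03 for all tested assays. In all, 3 of the 6 members, miR-17, miR-18a and miR-20a, were lower in the DC-primed sample of every round, as were 12.8% of tested assays. DC-primed samples 2 and 3, which carry these differences, were also the samples with the latest overall Ct (above), and the part of that in the result was not tested.

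**Figure D2:**
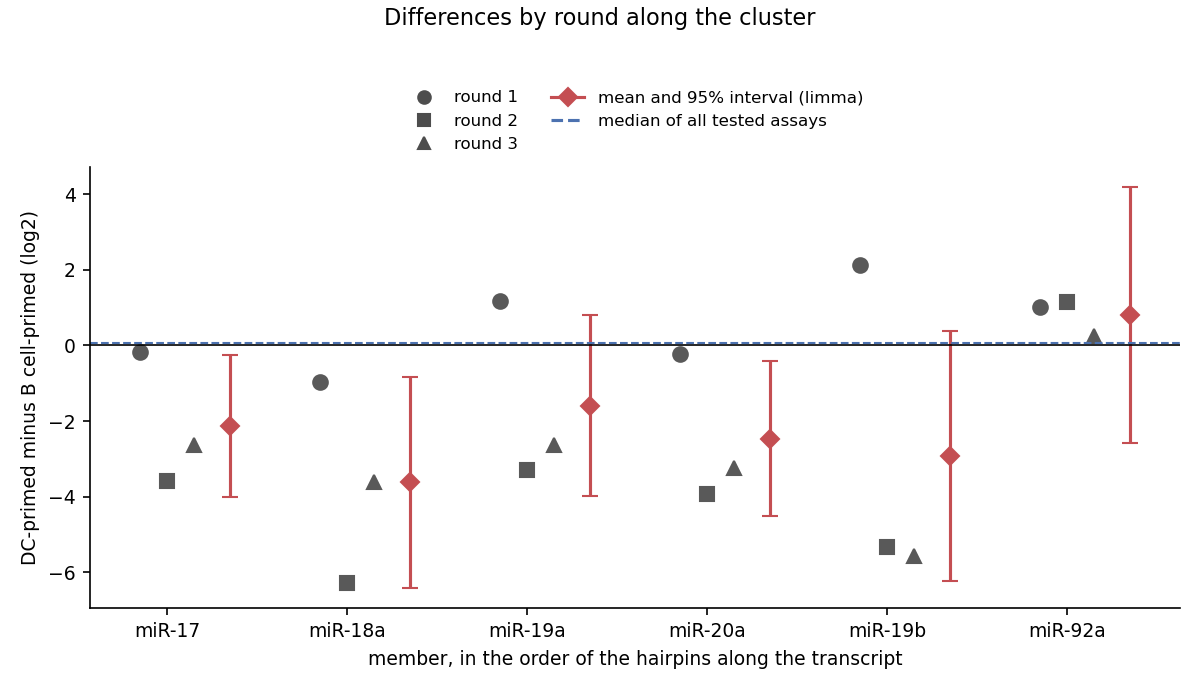
DC-primed minus B cell-primed difference (log2) of each member by round (grey symbols) with the mean and its 95% limma interval (red), members in the order of their hairpins, and the median of all tested assays as a dashed line at 0.07. Rounds 2 and 3 lie between -2.62 and -6.27 for the first 5 members, round 1 lies between -0.96 and 2.13, and miR-92a lies between 0.24 and 1.14 in all rounds.

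**Figure D3:**
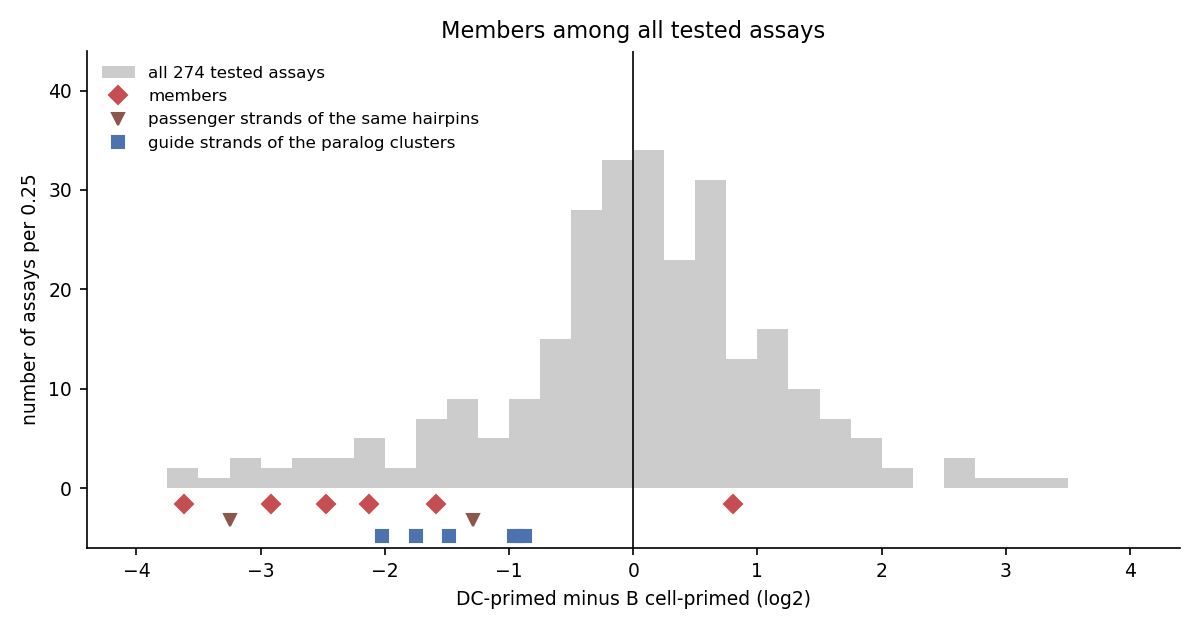
Number of assays per 0.25 log2 units of DC-primed minus B cell-primed difference for the 274 tested assays (grey), with symbols below the axis for the 6 members, 2 tested passenger strands and 6 tested paralog guide strands. All symbols but miR-92a lie left of 0, with the other 5 members between -3.62 and -1.59.

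The assay signals were ordered differently in the groups. In DC-primed cells miR-92a was highest at 3.54, followed by miR-20a at 1.83, miR-17 at 1.60, miR-19b at 1.19, miR-19a at 0.16 and miR-18a at -1.69. In B cell-primed cells the order was miR-20a at 4.29, miR-19b at 4.11, miR-17 at 3.73, miR-92a at 2.74, miR-18a at 1.92 and miR-19a at 1.75. Neighbours in both orders differed by less than the larger of their SDs, and signals of different primers also depend on primer efficiency, so neither order ranks amounts of RNA. Among all miRNA assays with a Ct in the same sample, miR-17 ranked 58, 93 and 80 from the earliest Ct in DC-primed samples 1, 2 and 3, against 45, 25 and 38 in their B cell-primed counterparts. miR-18a ranked 103, 258 and 237 in the DC-primed samples, against 66, 46 and 106 in their B cell-primed counterparts. miR-92a ranked 81, 50 and 14 in the DC-primed samples, against 97, 84 and 13 in their B cell-primed counterparts. Ranks need no normalizer. miR-17 and miR-18a ranked later in the DC-primed sample of each round, and miR-92a ranked earlier there in rounds 1 and 2 and 1 place later in round 3.

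A difference between 2 members within a sample does not depend on the normalizer either, and 15 such pairs were compared by a two-sided exact permutation test, which with 3 samples against 3 cannot go below p = 0.1. Across the groups miR-18a relative to miR-92a differed most. It stood at -0.84, -5.79 and -9.07 cycles in DC-primed samples 1, 2 and 3, against 1.15, 1.62 and -5.22 in their B cell-primed counterparts. It was lower in the DC-primed sample of every round, with differences of -1.99, -7.41 and -3.85, although the groups overlapped. The difference was -4.42 (exact permutation p = 0.2, 0.625 after adjustment over the 15 pairs), and -2.50 without DC-primed sample 3. miR-20a relative to miR-92a differed by -3.27 (p = 0.3 by the same exact test) and miR-17 relative to miR-92a by -2.93 (p = 0.3), both also lower in every round. miR-19b and miR-19a relative to miR-92a differed by -3.72 and -2.39, with round 1 running the other way at 1.10 and 0.15. Without DC-primed sample 3 these differences from miR-92a were smaller, at -1.47 for miR-20a, -1.28 for miR-17, -1.30 for miR-19b and -0.63 for miR-19a. That leaves B cell-primed sample 3, where miR-92a was also high at 5.80, without its round partner. Without B cell-primed sample 3 instead, the differences were larger, at -4.95 for miR-20a, -4.61 for miR-17, -5.10 for miR-19b and -3.91 for miR-19a. For miR-18a relative to miR-92a the difference was then -6.62.

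The remaining 10 pairs, without miR-92a, differed by 0.34 to 2.03 between the groups, and the groups overlapped in all 15 pairs. miR-20a stayed closest to miR-17, at 0.61, 0.15 and -0.07 cycles above it in DC-primed samples 1, 2 and 3, against 0.65, 0.49 and 0.56 cycles in their B cell-primed counterparts. The sequences of this pair, printed above, differ at 2 bases, and whether a primer reads both was not tested. miR-19b relative to miR-19a, which differ at 1 base, was less even, at 3.03, 0.35 and -0.29 cycles in the DC-primed samples, against 2.08, 2.37 and 2.64 cycles in their B cell-primed counterparts. miR-18a relative to miR-17 stood at -1.98, -4.06 and -3.83 cycles in the DC-primed samples, against -1.20, -1.37 and -2.84 cycles in their B cell-primed counterparts, a difference of -1.49 (exact permutation p = 0.2, adjusted 0.625).

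The raw Ct values show where miR-92a parted from the others. Over the 6 samples miR-92a moved by 3.95 cycles, from Ct 21.83 to 25.78, while the other members moved by 7.07 cycles for miR-17 to 10.61 for miR-19b, and the sample medians moved by 4.74 cycles. In DC-primed sample 3, where the median Ct was latest, miR-92a was at Ct 24.42 and the other members at 29.66 to 33.49. In raw cycles the DC-primed minus B cell-primed difference was 0.53 for miR-92a and 2.92 to 4.95 for the others, where a later Ct means less RNA, beside 1.30 for the sample medians.

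**Figure D4:**
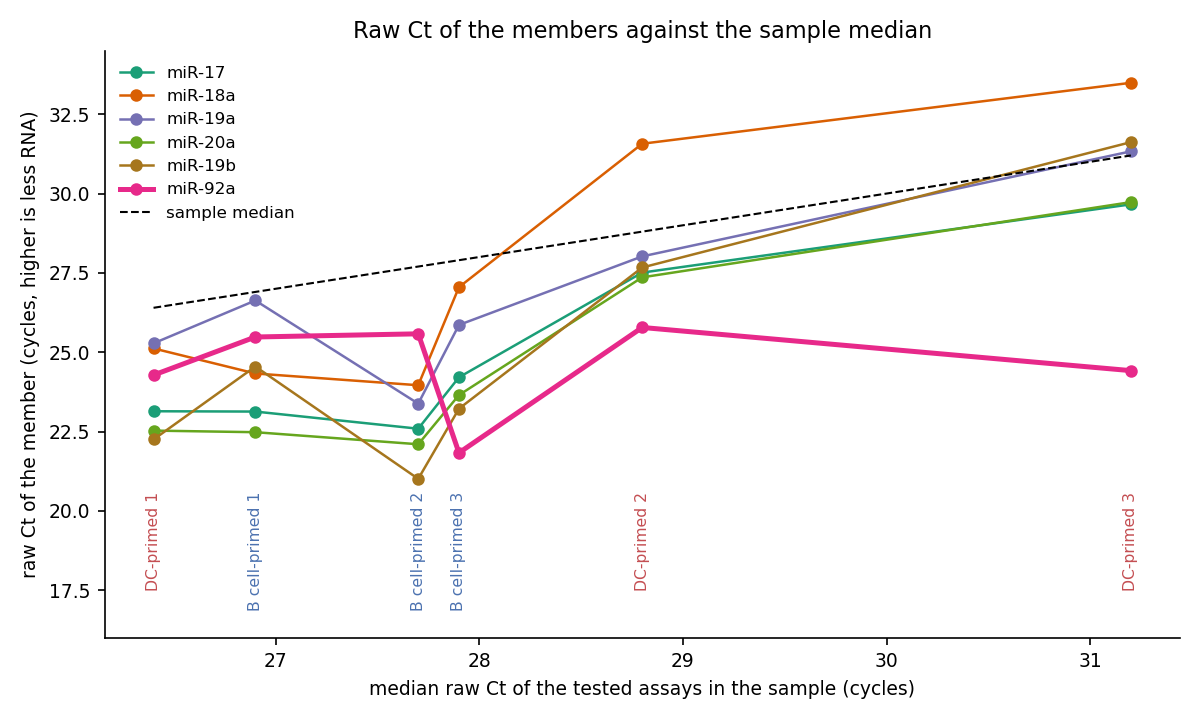
Raw Ct of each member (vertical, cycles, higher is less RNA) in the 6 samples placed by the median raw Ct of their tested assays (horizontal, cycles), with sample names along the bottom and the sample median as a dashed line. From DC-primed sample 1 to DC-primed sample 3 the members other than miR-92a climb to Ct 29.66 to 33.49, and miR-92a stays at 24.42.

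The worm assay cel-mir-67, for a miRNA that mouse cells lack, read Ct 16.94 to 26.22 over its 9 wells per sample, within the members' Ct range or earlier. Its purpose is not given in the sources used here, so it was used neither as a background nor as a normalizer. The assay cel-mir-356 had a value in the round 1 samples only, at Ct 44.08 in the DC-primed and 44.91 in the B cell-primed sample, later than every member.

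The scale changed the size of these differences. The median of all tested assays moved to -1.26 without normalization, and to 1.30 when levels were scaled to 2 small RNAs, RNY3 and snoRD47. miR-17, miR-18a, miR-19a, miR-20a and miR-19b were lower in DC-primed cells under both, at -3.46, -4.95, -2.92, -3.80 and -4.25 without normalization and at -0.90, -2.39, -0.36, -1.24 and -1.70 relative to the 2 small RNAs. miR-92a was at -0.53 and 2.03. These scales and the authors' own differ from each other by 1 number per sample, so a change of scale shifts every assay alike. It leaves the distance of a member from the median of all tested assays as it was. The small RNA scale is itself imprecise, because the wells of a sample scattered, with SDs of 1.59 to 2.80 cycles (RNY3) and 2.97 to 6.05 cycles (snoRD47).

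**Figure D5:**
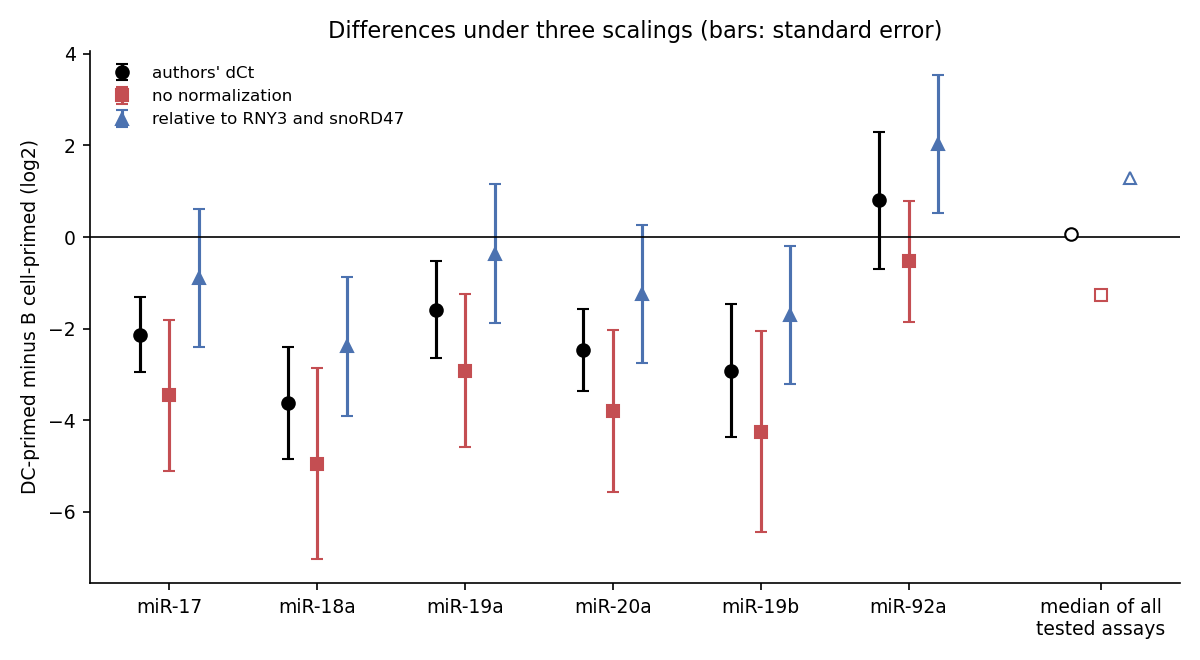
DC-primed minus B cell-primed difference (log2) of each member on the authors' scale (black), without normalization (red) and relative to RNY3 and snoRD47 (blue), with limma standard errors, and open symbols for the median of all tested assays at 0.07, -1.26 and 1.30. The first 5 members are below 0 on all 3 scales, miR-92a crosses 0.

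The passenger strands of 3 of the 6 hairpins were on the panel. miR-18a*, from the hairpin printed above, had levels of -2.33, -3.57 and -4.45 in DC-primed samples 1, 2 and 3, against -0.55, -0.23 and 0.17 in their B cell-primed counterparts, without overlap. Its difference of -3.25 ± 0.74 (SE, adjusted p = 0.228) was close in size to that of its guide. miR-17* differed by -1.29 ± 0.69 (adjusted p = 0.707) and miR-20a*, which was not tested because it reached Ct 36 in DC-primed sample 3, by -2.37. Neither of those overlapped between the groups. Among all tested assays, 8.03% were lower in DC-primed cells without overlap. The guide strand relative to its passenger strand differed between the groups by -0.37 for miR-18a, -0.84 for miR-17 and -0.10 for miR-20a (exact permutation p = 1, 0.4 and 1, and 1 for each after adjustment over the 3 pairs), with SDs of 0.37 to 1.54 within groups.

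The paralog clusters miR-106b/miR-25 and miR-106a/miR-363 carry members of the same seed families. The 3 closest in sequence are printed with seeds in capitals, because miR-106a differs from miR-17 at 1 base, miR-20b from miR-17 and from miR-20a at 2, and miR-18b from miR-18a at 2:
miR-106a: cAAAGUGCuaacagugcagguag
miR-20b: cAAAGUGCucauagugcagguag
miR-18b: uAAGGUGCaucuagugcuguuag
Of 7 paralog guide strands, 6 were tested and 0 passed. All 6 were lower in DC-primed cells, beside 46.7% of all tested assays, with a median difference of -1.22. The differences ran from -2.02 ± 0.75 (SE, limma adjusted p = 0.439) for miR-363 to -0.87 ± 0.74 (0.961) for miR-20b. miR-106b was not tested, because its Ct was 42.51 in DC-primed sample 1 and 23.53 to 27.75 elsewhere. By round, miR-106a differed by -1.6, -3.13 and -0.51, miR-20b by -1.23, -0.56 and -0.80, and miR-18b by -2.51, -1.18 and 0.83. Of these 3, miR-106a and miR-20b were lower in the DC-primed sample of every round, as were 12.8% of tested assays, and miR-18b in rounds 1 and 2. Whether primers of the members also read these paralogs was not tested. miR-25 and miR-363, which share the seed of miR-92a, were lower in the DC-primed sample of all 3 rounds, where miR-92a was higher in all 3. Their differences by round were -1.21, -1.73 and -1.49 for miR-25 and -1.69, -3.56 and -0.79 for miR-363.

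MYC, which activates this cluster, represses a set of growth-restraining miRNAs, and 25 such guide strands were on the panel. In DC-primed cells 18 of the 24 tested had a positive difference and 6 a negative one, where 46.7% of all tested assays were lower, and the list's median was 0.52 beside 0.07. None of the 24 passed the test. The largest difference was that of miR-22 at 2.53 ± 1.47 (SE, adjusted p = 0.720), and the smallest that of miR-29c at -1.07 ± 1.49 (0.971). miR-22, miR-150 and miR-34a also stand among the marker miRNAs of the priming cells given below. In rounds 1, 2 and 3 the list's median was 1.78, 0.46 and -0.84, and the members' median was 0.42, -3.75 and -2.95. Without miR-92a the members' median was -0.18, -3.92 and -3.25. The signs of the 2 medians were opposite in round 2 with all 6 members, and in rounds 1 and 2 without miR-92a. All tested assays had medians of -0.27, 0.45 and -0.03 in rounds 1, 2 and 3. In round 2 the list's median was close to that of all tested assays. In round 1 the members' median without miR-92a was slightly above it. Over all 6 samples the list's median was 0.52 and the members' median -2.30, beside 0.07 for all tested assays. Whether the 2 lists are linked was not tested.

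The tested assays other than the 6 members were compared with the mean profile of miR-17, miR-18a, miR-19b and miR-20a over the 6 samples. Likeness was measured by the root mean square distance of centred levels, and the tested passenger strands of the cluster were included. The nearest were the human-named miR-520g at 0.31, miR-187 at 0.68, miR-18a* at 0.85, miR-720 at 0.92 and miR-374 at 0.95, where the median over 268 assays was 2.18. miR-520g is a primate miRNA, and the RNA its assay read in mouse cells is not known. The template's own miRNAs stood at 0.35 for miR-20a, 0.55 for miR-17, 0.75 for miR-18a and 0.90 for miR-19b, distances that are small by construction. miR-19a, which the template did not use, stood at 1.15, with 9 non-member assays closer. miR-92a, which the template did not use either, stood at 3.37, farther than 264 of the 268 non-member assays. That distance depends in part on which members were put in the template.

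Markers of the priming cells differed between samples too. Of 7 myeloid and dendritic cell miRNAs listed, 6 were on the panel, and their summed linear level (2 to the power of the level) was 168, 25.3 and 2.99 in DC-primed samples 1, 2 and 3, against 2.50, 3.45 and 1.77 in their B cell-primed counterparts. The defining one, miR-223, had Ct 20.82, 27.23 and 36.99 in the DC-primed samples, against 32.14, 32.44 and 32.67 in their B cell-primed counterparts. The DC-primed sample with the highest myeloid sum, sample 1, was the one whose members other than miR-92a lay nearest its B cell-primed partner. DC-primed sample 3 had a sum within the B cell-primed range and differences of -2.62 to -5.57 for 5 of the 6 members. That sum hides a split. In this sample miR-147 at -0.11 and miR-99b at -2.66 lay above every B cell-primed sample, whose highest levels were -1.82 and -2.95. There miR-22 and miR-125a-5p lay within the B cell-primed range. Below that range were miR-223 and miR-146b, the latter at Ct 38.77 in the sample with the latest overall Ct. B cell-associated miRNAs (miR-150, miR-34a and miR-148a, none specific to B cells) summed to 49.7, 28.2 and 18.8 in the DC-primed samples, against 12.3, 11.5 and 18.1 in their B cell-primed counterparts. The part of these cells in the cluster's values was not tested.

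In the authors' deposited table the fold changes of DC-primed over B cell-primed were 0.228 for miR-17, 0.0815 for miR-18a, 0.332 for miR-19a, 0.181 for miR-20a, 0.132 for miR-19b and 1.74 for miR-92a. In the same authors' deposited table the p-values of a two-tailed paired test over rounds ran from 0.106 for miR-92a to 0.373 for miR-19a. The ordering of those p-values does not follow the fold changes: miR-92a has the smallest change and the smallest p.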

How the data were processed

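MicroRNAs were measured by SYBR Green RT-PCR in 6 samples, grouped with their round number by title. Per the labels' protocols, RNA was isolated with the mirVana kit, treated with DNase I, poly(A)-tailed and reverse transcribed from oligo-dT primers with a universal tag. Of the deposited tables, 1 gives raw Ct and the other dCt on a log2 scale, although their names state the reverse. Per the file headers, the authors normalized each sample to the geometric mean of all its Ct values. The deposited p-values come from the authors' two-tailed paired test, and the deposited fold change is a ratio with the DC-primed group on top, per the file headers. The sources used here do not give the instrument or how Ct was called. The authors filled in missing Ct in some assays, none of them a member.

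Levels are minus dCt. Assays with a raw Ct below 35 in all 6 samples were tested, 274 of 345, all 6 members among them. limma 3.58.1 in R 4.3.3 (lmFit, eBayes, two-sided, no block) was fitted on all of them, with Benjamini-Hochberg adjustment over all 274 and a threshold of 0.05; it was tested on simulated data. Adjusted p-values are limma's, and standard errors its moderated ones. Single values were compared by exact permutation in scipy 1.17.1. Sequences are from RefSeq, build GRCm38.p6, where 16 of 16 names matched. Figures were drawn with matplotlib 3.10.9.

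Same-round samples' deviations from group means correlated at 0.16, 0.14 and 0.46 over the tested assays (other pairings: -0.42 to 0.33, the highest being DC-primed round 1 with B cell-primed round 2), so the rounds from the titles were taken as pairs in the block alternative. Nothing in the labels says that rounds came from separate animals or cultures, and the p-values therefore reflect sample-to-sample spread that may be technical. The plan foresaw 5 members and 10 pairs; the tables held a sixth, miR-19a, giving 15. It also foresaw the cel-mir wells as background, which their early Ct did not allow. Members and lists were chosen with earlier results of these data known. Named beside the members were their passenger strands, the largest and smallest difference of the paralog and MYC-repressed lists and the 5 nearest profiles; miR-25, miR-106a, miR-106b and miR-18b were singled out after their values were seen. Alternatives were other scalings, Ct limits, a variance trend, the round as a block, rebuilding dCt from Ct, and leaving out samples or rounds.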

Additional observations from a re-analysis of the deposited data

How the results depend on the processing

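limma called 0 members under every alternative run: raw Ct, scaling to RNY3 and snoRD47, subtraction of the median, quantile normalization, Ct limits of 32 and 38 or none, a variance trend, dCt rebuilt from Ct, the replicate block, and leaving out any 1 sample or any 1 round. Over all tested assays it called 0 as well, except 2 without DC-primed sample 3. A Ct limit of 32 removed miR-18a, which then has no value. The replicate block changed no call; its adjusted p was 0.0522 for miR-18a, whose difference stayed -3.62, and 0.213 for miR-20a. Over the alternatives the adjusted p ran from 0.0973 to 1 for miR-17, 0.0522 to 1 for miR-18a, 0.360 to 1 for miR-19a, 0.0630 to 1 for miR-20a, 0.119 to 1 for miR-19b and 0.654 to 1 for miR-92a.

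The members other than miR-92a were lower in DC-primed cells in each alternative that gave a value. The members' median was -1.07 on the RNY3 and snoRD47 scale and -3.63 on raw Ct. miR-92a turned to -0.53 without normalization. Leaving out 1 sample at a time, its difference ran from -0.45 (without DC-primed sample 3) to 2.33 (without B cell-primed sample 3), miR-18a's from -5.0 to -2.91, miR-19a's from -2.60 to -0.59, miR-19b's from -4.30 to -1.75 and the median of the 6 from -3.12 to -1.74, with 5 or 6 members lower. Among the pairs, miR-17 over miR-19a ran from -1.14 to 0.22, miR-18a over miR-19b from -1.52 to 0.51 and miR-19b over miR-20a from -1.40 to 0.18. The causes were not tested. The number of samples limits the precision, and what the late Ct of DC-primed sample 3 adds to the spread was not tested.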
